A study of Mus musculus with 70 samples.

Results

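Expression of the genes for the ionotropic receptors of GABA, glycine and glutamate was examined in a bulk RNA-Seq atlas of the mouse brain. These were all rows of the gene-level expression table whose symbol names a subunit of these receptors: the Gabr genes with a subunit letter, Glra1 to Glra4 and Glrb, Gria1 to Gria4, Grik1 to Grik5, and the Grin1, Grin2, Grin3 and Grid genes. Of 34677 genes in the table, 42 were chosen, by name alone and by no measured value. They comprised 19 GABA-A receptor subunits, 5 glycine receptor subunits, 4 AMPA receptor subunits, 5 kainate receptor subunits, 7 NMDA receptor subunits and 2 delta receptor subunits.

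GABA-A and glycine receptors are pentameric chloride channels and carry most of the fast inhibition in the brain and spinal cord. Their subunit makeup sets affinity for the transmitter, location at or outside the synapse, and sensitivity to drugs such as benzodiazepines and neurosteroids. AMPA, kainate and NMDA receptors are tetrameric cation channels that carry fast excitation, and the delta receptors are their relatives that bind synaptic adhesion proteins. In development, the switch of subunits within each family (Glra2 to Glra1, Grin2b to Grin2a, and others) and the rise of the chloride exporter Slc12a5 are textbook features of maturing neurons.

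The atlas held 70 libraries in 24 groups, and no treatment of the mice is stated. The mice, male where adult, are labelled C57BL/6 and are C57BL/6NTac per the study's methods, and the stem cells were derived from C57BL/6 mice. The 57 adult libraries came from mice at postnatal day (P) 56 and covered 18 regions: frontal pole (FRP), anterior cingulate area (ACA) and entorhinal area (ENT) of the cortex, nucleus accumbens (ACB), the paraventricular (PVH), ventromedial (VMH), dorsomedial (DMH) and arcuate (ARH) hypothalamic nuclei and the lateral hypothalamic area (LHA), ventral tegmental area (VTA), parabrachial nucleus (PB), nucleus of the solitary tract (NTS), dorsal vagal complex (DVC), the cerebellar lobules CENT2, CUL4-5, uvula (UVU) and flocculus (FL), and the cerebellar nuclei (CBN). The 9 embryonic libraries were taken at stage E14.5 from forebrain (F), terminal and peduncular hypothalamus (THy/PHy), midbrain (M) and hindbrain (H). The other 4 libraries came from mouse embryonic stem cell (mESC) clones B6-1 and B6-2. Per the study's methods, these lines were kept on feeder cells and passaged off them before collection. Their final medium was part feeder-conditioned and held leukemia inhibitory factor and small-molecule inhibitors, so culture and cell type cannot be told apart. Groups held 2 to 4 libraries, except F with 1. A brain library was RNA from tissue punches pooled over 3 or 4 animals, with 1 ACB library from a single mouse, and pools of different regions shared animals, so p-values measure the spread between these pools. Embryos, adults and stem cells were processed in separate batches, so stage and batch cannot be told apart. The adult libraries also came from several batches, most regions spanning more than 1, and no batch term was fitted.

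Depth was 9074581 to 22229582 estimated counts per library (median 17016935). Levels are given as TPM, transcript abundance corrected for length and depth. The median library carried 7.49% of its TPM in mitochondrial genes, but VTA replicate 1 carried 39.62% and H replicate 1 carried 22.56%. Summed levels of region markers were highest in the regions they name, with exceptions. The lateral hypothalamic peptides Hcrt and Pmch summed to a mean of 5985 TPM in LHA but also to 4324 TPM in VMH and 1528 TPM in DMH. Choroid plexus markers reached 12660 TPM in CBN, 10650 TPM in an NTS library and 3048 TPM in a lobule library, against at most 43.6 TPM in the hypothalamus. The VTA markers ranged from 411.9 to 1457 TPM, lowest in VTA replicate 1. In such tissue samples, fewer cells of a type and less RNA per cell cannot be told apart.

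Because much of what distinguishes these receptors lies in alternative exons and regulatory sequence, 6 sequences are shown. The first pair are the mutually exclusive flip and flop exons of Gria1, which encode the end of the ligand-binding domain and set how fast the AMPA receptor desensitizes. They lie at chr11:57310608-57310722 (flip) and chr11:57309769-57309883 (flop) on the plus strand of GRCm38, both coding. Capitals mark the 36 positions at which they differ.
Gria1 flip: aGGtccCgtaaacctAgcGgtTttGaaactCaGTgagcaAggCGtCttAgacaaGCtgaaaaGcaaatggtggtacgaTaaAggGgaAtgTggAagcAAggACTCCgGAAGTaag
Gria1 flop: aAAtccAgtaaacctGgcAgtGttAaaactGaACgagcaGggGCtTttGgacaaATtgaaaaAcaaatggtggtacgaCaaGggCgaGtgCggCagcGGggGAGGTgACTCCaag
The next pair are cassette exons of Grin1, the obligatory NMDA receptor subunit, at chr2:25311343-25311405 (N1) and chr2:25294438-25294548 (C1), both coding and on the minus strand. N1 adds an extracellular loop that changes inhibition by protons and zinc, and C1 adds a cytoplasmic segment that holds receptors in the endoplasmic reticulum.
Grin1 N1: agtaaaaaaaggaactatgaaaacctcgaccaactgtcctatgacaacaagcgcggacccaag
Grin1 C1: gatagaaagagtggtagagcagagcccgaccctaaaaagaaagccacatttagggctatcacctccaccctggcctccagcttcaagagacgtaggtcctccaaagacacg
The last pair are the 250 bases before the starts of Gabra6 (chr11:42321073-42321322, minus strand) and Grin2c (chr11:115267244-115267493, minus strand), from RefSeq on GRCm38.p6, shown because these genes had the most similar adult pattern to each other of all their pairings with other members. Capitals mark the half-site of nuclear factor I, searched as TTGGC on both strands, which occurred once in the Gabra6 window and in no place in the Grin2c window.
Gabra6: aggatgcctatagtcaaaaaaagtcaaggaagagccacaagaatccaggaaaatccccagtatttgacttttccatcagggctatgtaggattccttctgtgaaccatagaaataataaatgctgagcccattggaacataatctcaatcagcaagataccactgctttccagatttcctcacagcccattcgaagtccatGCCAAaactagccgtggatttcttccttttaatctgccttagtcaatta
Grin2c: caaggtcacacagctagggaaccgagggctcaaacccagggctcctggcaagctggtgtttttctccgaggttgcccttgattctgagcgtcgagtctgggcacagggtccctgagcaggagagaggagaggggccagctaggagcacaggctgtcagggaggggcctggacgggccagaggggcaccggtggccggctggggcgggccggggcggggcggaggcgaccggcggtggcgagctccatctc
The half-site was present in 41.5% of 32851 promoter windows of that length and in 15 (45.5%) of the 33 windows of members.

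Across the adult brain the receptor genes were broadly expressed. In 28 of the 42, the mean was at or above 1 TPM in every adult region, 33 reached that level in some embryonic region and 8 in an mESC line. Gabrr1 and Gabrr3, subunits of the rho type known from retina, stayed under 1 TPM in every group mean. Summed over all members, the level was 2273 to 2719 TPM in cortex, 1926 to 3573 TPM in the cerebellar lobules, 1759 to 2344 TPM in the hypothalamus, 1496 to 1966 TPM in the hindbrain nuclei and 1323 to 1379 TPM in CBN. It was 350.0 to 793.2 TPM in the embryonic brain and 26.7 to 34.0 TPM in mESC, so the 3 kinds of sample did not overlap. The map of group means shows the blocks that the following paragraphs describe.

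**Figure D1:**
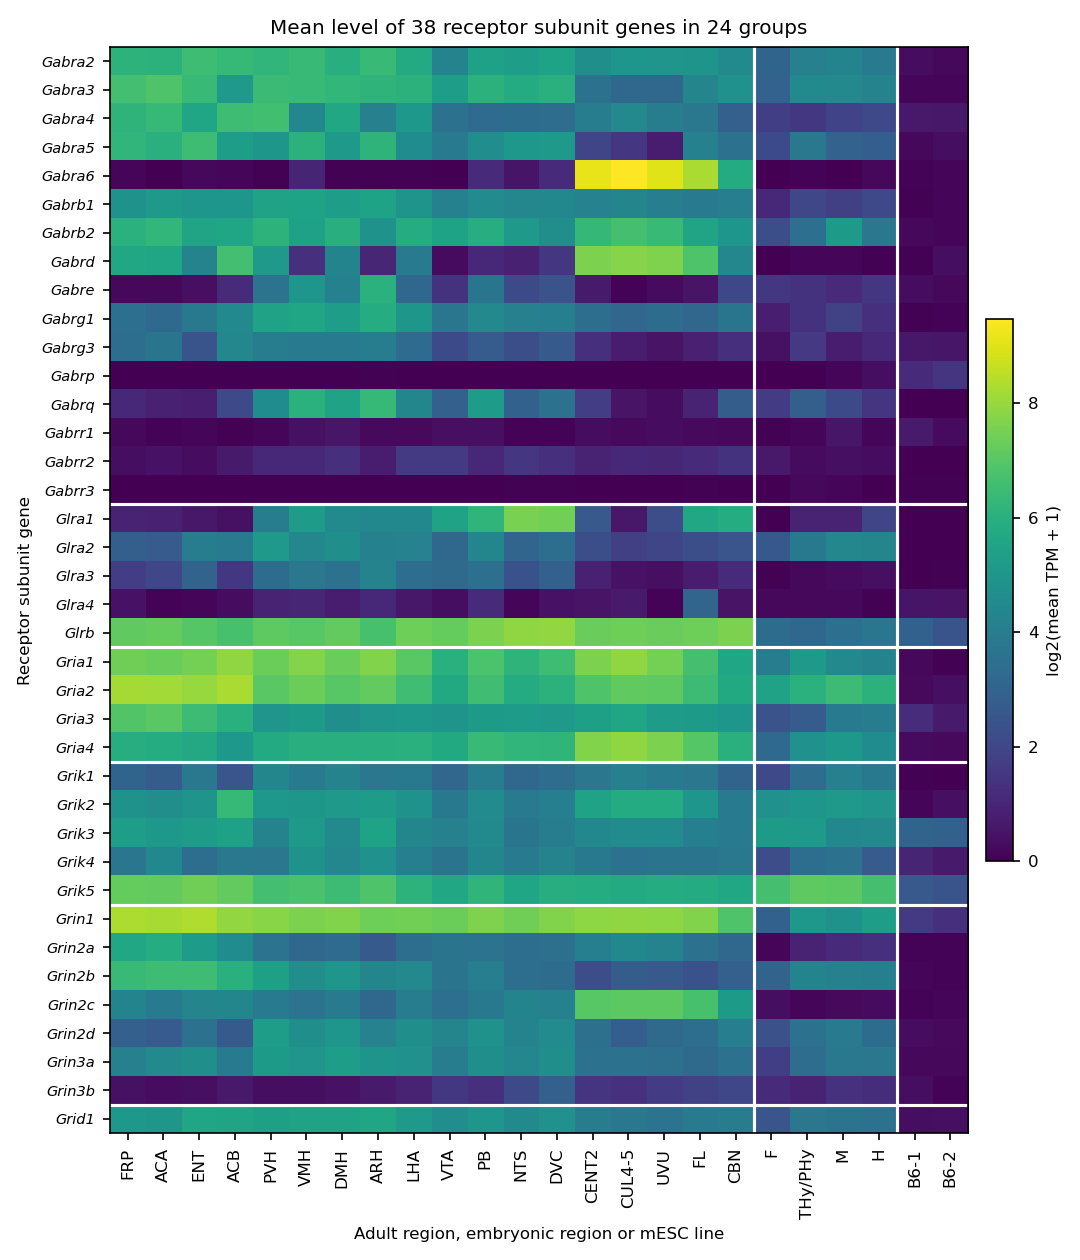
Level of 38 receptor genes (rows, by family) in the 24 groups (columns), as log2(mean TPM + 1), with white lines between families and between adult, embryonic and mESC groups. Gabra6, Gabrd and Grin2c are brightest in the cerebellar lobules, Gabre and Gabrq in the hypothalamus and Glra1 in the hindbrain nuclei, and the mESC columns are dark for nearly all members.

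To ask where each subunit is enriched, each adult system was compared with the other adult regions by edgeR's quasi-likelihood test on estimated counts, fitted over 19980 genes. Of the members, 41 passed the filter on low counts, Gabrr3 being the exception. Calls required a Benjamini-Hochberg p below 0.05 together with a log2 fold change past 1 in size. Regions weighed equally on the log2 scale, so a gene concentrated in a few of the other regions could be called higher in a system whose mean TPM was lower. In the cortex, 11 members were called higher and 8 lower, where 8.17% and 7.95% of all genes were. In ACB, 7 were higher and 5 lower (all genes 7.3% and 5.49%). In the hypothalamus, 12 were higher and 4 lower (6.11% and 2.74%). In VTA, 8 were higher and 2 lower (6.89% and 3.65%). In the hindbrain nuclei, 5 were higher and 2 lower (5.18% and 2.66%). The lobules had 6 higher and 15 lower (8.21% and 9.75%), and CBN had 3 higher and 9 lower (7.86% and 2.88%). The member medians of the log2 fold change ran from -0.57 in CBN to 0.34 in the hypothalamus, and those over all genes from -0.033 in cortex to 0 in the lobules. The 4 oligodendrocyte markers summed to 10110 to 16850 TPM in CBN, 9164 to 14090 TPM in the hindbrain nuclei, 7330 to 14200 TPM in VTA and 555 to 1922 TPM in cortex, while the 5 neuron markers summed to 2906 to 3151 TPM in CBN and 3342 to 5321 TPM in cortex. Their part in the calls was not tested. Calls were made in at least 1 of these 7 comparisons for 34 members. The matching share of all genes was not counted, so this number is a tally only.

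The other 8 included Gabrb2, Gabrp, Gabrr3, Glrb, Grik3, Grik4 and Grin1. Gabrp and Gabrr3 were near 0. Glrb, the beta subunit that anchors glycine receptors to gephyrin, had a coefficient of variation of 0.24 over the 18 region means, and Grin1 had 0.25. Glrb was present at 97.3 to 154 TPM in cortex and ACB libraries, where Glra1 was at most 1.21 TPM.

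Among the alpha subunits of the GABA-A receptor, Gabra6 was the most restricted. Gabra6 encodes the alpha6 subunit known from cerebellar granule cells and lies at chr11:42306437-42321072. Its levels in the 15 lobule libraries ran from 227 to 749.5 TPM (median 548 TPM), in CBN they were 28.7, 55.7 and 84.8 TPM, and no library elsewhere in the adult brain exceeded 3.40 TPM. The lobules did not overlap with other adult libraries, and Gabra6 was called higher there (log2 fold change 11.28, SE 0.22, adjusted p = 2.36e-40) and in CBN (6.22, SE 0.29, adjusted p = 9.59e-23). Granule cell markers summed to 844 to 2112 TPM in the lobules, 190 to 313 TPM in CBN and at most 244 TPM in other adult regions, and their part in these results was not tested. Gabra6 was also called lower in cortex, where it ranged from 0 to 0.334 TPM. That call was lost (adjusted p = 1) when any of ACB replicate 3, ARH replicate 1, LHA replicate 1, PVH replicate 2, VMH replicate 2 or VTA replicate 2 was left out, and its fitted size depends on the prior count.

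Gabra5, an alpha subunit of extrasynaptic receptors prominent in hippocampus, was highest in ENT, with 105, 101 and 72.0 TPM, and was 59.5 to 87.5 TPM in the other cortical libraries. Its calls were higher in cortex (log2 fold change 2.35, SE 0.14, adjusted p = 4.98e-21) and hypothalamus (1.27, adjusted p = 1.13e-11) and lower in the lobules (-3.86, SE 0.19, adjusted p = 1.31e-24). Gabra3 had the same 3 calls, at 1.57 in cortex, 1.08 in the hypothalamus and -2.84 in the lobules. Its levels were 74.7 to 119 TPM in cortex and 3.80 to 23.2 TPM in the lobules, with no overlap between those systems. Gabra4, the usual partner of the delta subunit in forebrain, was 79.4, 93.9 and 103.9 TPM in ACB and 39.4 to 83.2 TPM in cortex. Gabra4 was called higher in both (1.94 and 1.83, adjusted p = 8.38e-19 and 2.01e-25) and lower in the hindbrain nuclei (-1.77, adjusted p = 1.24e-19) and CBN (-1.65, adjusted p = 2.94e-10). Gabra2 was called lower in the lobules (-1.07, but -0.91 by limma on log2(TPM + 0.5), inside the fold threshold) and in CBN (-1.03, but -0.98 without VTA replicate 1).

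Of the beta subunits, Gabrb2 had no adult call. Gabrb1 was called higher in the hypothalamus (1.08) and lower in the lobules (-1.33). By limma on log2(TPM + 0.5), both stayed on the same side of 0 but inside the fold threshold (0.90 and -0.78).

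Gabrd, the delta subunit of extrasynaptic receptors that carry tonic current and respond to neurosteroids, was abundant in some regions and nearly absent from others. It was 87.5, 93.9 and 114.5 TPM in ACB, 42.5 to 58.3 TPM in FRP and ACA, and 0.0656, 0.197 and 0.389 TPM in VTA. The VTA libraries lay below all other adult libraries, of which the lowest held 0.550 TPM. Gabrd was called higher in the lobules (log2 fold change 4.58, SE 0.11, adjusted p = 4.95e-39), in ACB (3.03, SE 0.16, adjusted p = 8.43e-23) and in cortex (1.73, adjusted p = 1.73e-17), where the mean of 38.3 TPM was below the 60.9 TPM of the other regions because of the 78.4 to 236 TPM in the lobules. It was called lower in VTA (-6.07, SE 0.45, adjusted p = 6.62e-16), the hindbrain nuclei (-4.23, SE 0.28, adjusted p = 1.97e-18) and the hypothalamus (-1.59, SE 0.18, adjusted p = 5.38e-11).

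Gabre and Gabrq, the epsilon and theta subunits, share a cluster on chromosome X with Gabra3 and marked the hypothalamus. Gabre was 58.0, 64.4 and 72.4 TPM in ARH, above every other library, and 6.73 to 43.3 TPM in the other hypothalamic nuclei. The cortex held 0.1003 to 0.450 TPM and the lobules 0.0354 to 1.58 TPM. Gabre was called higher in the hypothalamus (log2 fold change 4.67, SE 0.16, adjusted p = 5.08e-30) and the hindbrain nuclei (1.97) and lower in the lobules (-4.07, adjusted p = 1.02e-18) and cortex (-3.88, adjusted p = 3.06e-14). Gabrq ran from 15.4 to 88.3 TPM in the hypothalamus, and from 30.9 to 41.1 TPM in PB. Gabrq was called in the same directions in the hypothalamus (4.07), hindbrain nuclei (1.78), lobules (-4.04) and cortex (-2.87), but the cortical call was lost without UVU replicate 1 (adjusted p = 0.125). Over the 18 adult region means the correlation of Gabre with Gabrq was r = 0.98, the highest of 780 pairs of members (median 0.08). The points share libraries, and the value is a description.

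The gamma subunits Gabrg1 and Gabrg3 differed in their maps. Gabrg1 was 27.2 to 68.0 TPM in the hypothalamus and at most 28.0 TPM elsewhere, and was called higher there (log2 fold change 1.76, SE 0.06, adjusted p = 5.18e-29) and lower in the lobules (-1.46). Gabrg3 was 18.4, 20.5 and 20.7 TPM in ACB, above all other adult libraries. Gabrg3 was called higher in ACB (2.33, SE 0.17, adjusted p = 1.72e-16), hypothalamus (2.05) and cortex (1.15, but 0.78 by limma on log2(TPM + 0.5)) and lower in the lobules (-3.51, adjusted p = 1.41e-26) and CBN (-1.91). Gabrr2 did not exceed 3.21 TPM in any library and was called lower in cortex (-2.09).

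**Figure D2:**
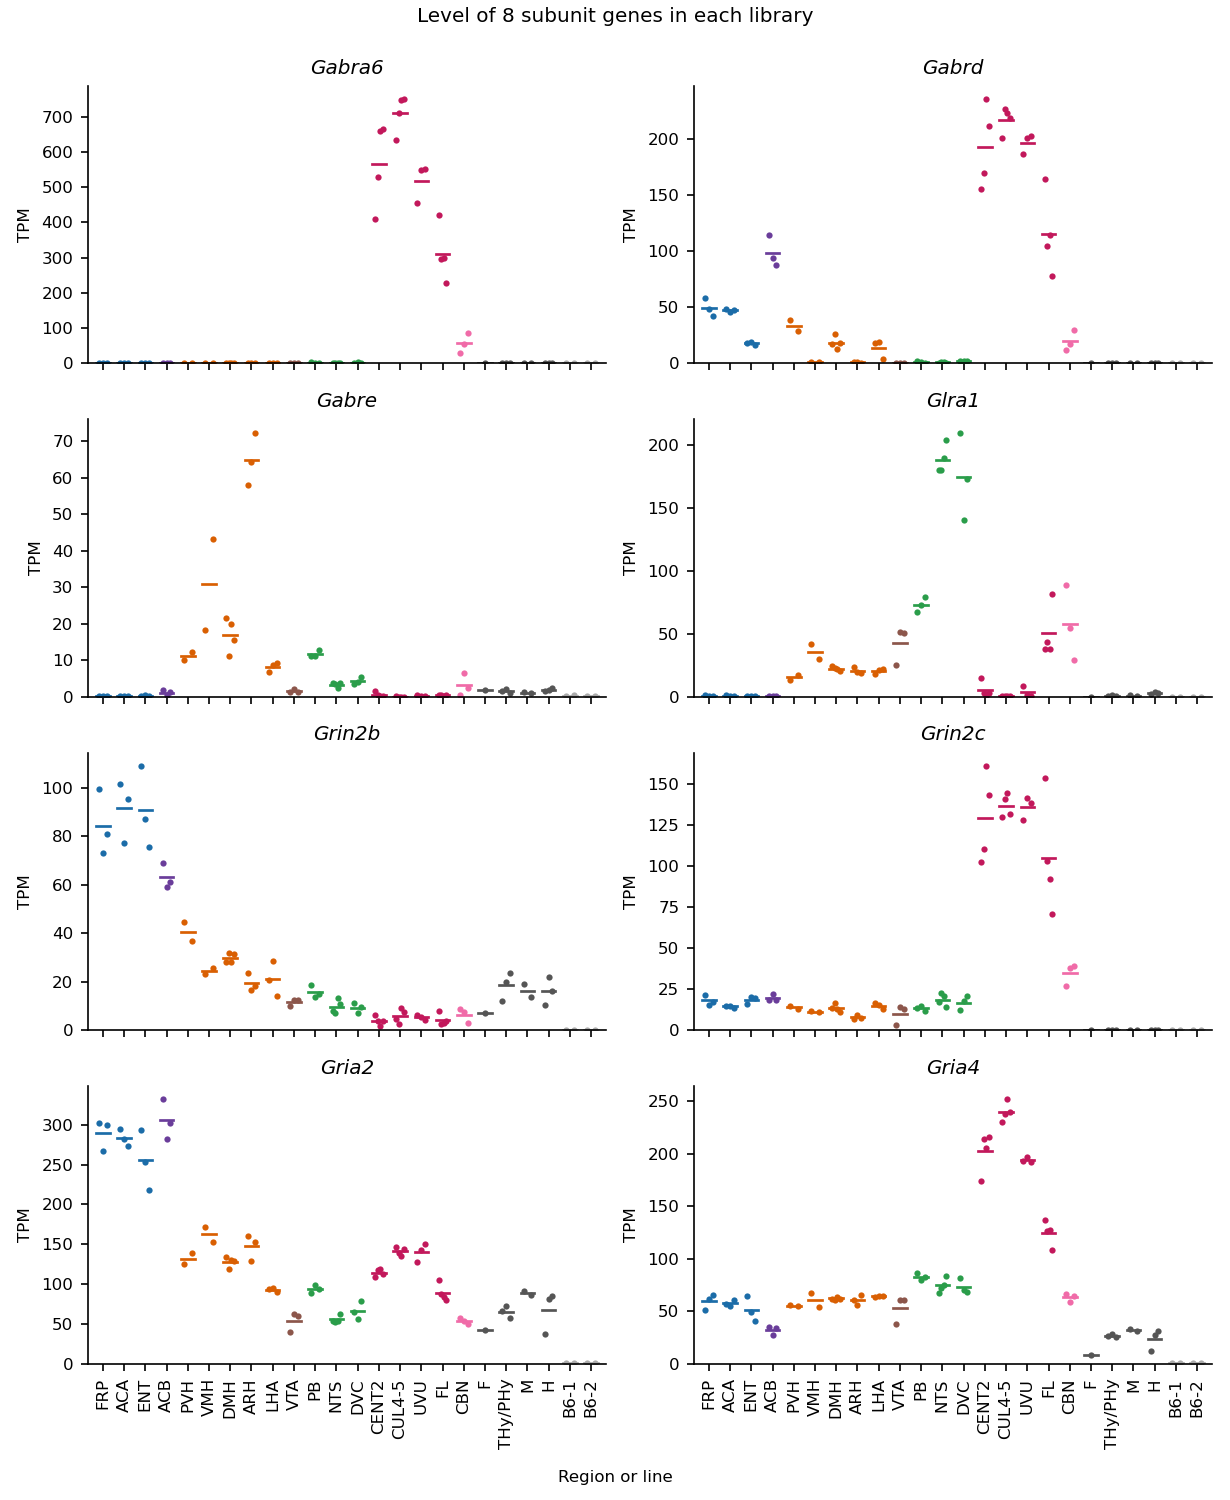
TPM of Gabra6, Gabrd, Gabre, Glra1, Grin2b, Grin2c, Gria2 and Gria4 in every library (points, coloured by brain system) of the 24 groups, with the group mean as a line. Gabra6 is above 227 TPM in all lobule libraries, Gabre peaks in ARH at 58.0 to 72.4 TPM and Glra1 in NTS and DVC at 140 to 210 TPM, while Grin2b falls from cortex to the lobules.

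Of the glycine receptor genes, Glra1 had its peak in the hindbrain. Glra1, the adult alpha subunit of spinal and brainstem synapses (chr11:55514238-55608198), was 180.5, 180.1, 189.5 and 204 TPM in NTS, 209.9, 140.1 and 173 TPM in DVC and 67.7, 72.5 and 79.5 TPM in PB. It was at most 1.21 TPM in cortex and 0.355 TPM in ACB. Glra1 was called higher in the hindbrain nuclei (log2 fold change 4.49, SE 0.17, adjusted p = 4.51e-27), CBN (2.73, SE 0.26, adjusted p = 2.16e-12) and VTA (2.67, SE 0.26, adjusted p = 7.41e-12). It was also called higher in the hypothalamus (1.43, adjusted p = 1.09e-08), although the mean of 22.9 TPM was below the 46.1 TPM of the other regions. It was called lower in ACB (-5.36, SE 0.67, adjusted p = 2.61e-09), cortex (-4.52, SE 0.37, adjusted p = 1.24e-15) and lobules (-1.65, adjusted p = 1.77e-07).

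Glra3, whose receptors in the spinal cord are a target of prostaglandin signaling, was highest in ARH with 15.3, 15.9 and 22.5 TPM. Glra3 was called higher in the hypothalamus (log2 fold change 2.35, adjusted p = 4.26e-18), VTA (2.08) and hindbrain nuclei (1.14, but 0.99 without NTS replicate 4 and 0.84 by limma on log2(TPM + 0.5)) and lower in the lobules (-3.72, adjusted p = 2.65e-20) and CBN (-1.52). Glra2, the fetal alpha subunit, was 15.2 to 34.8 TPM in the adult hypothalamus and was called higher there (1.63, adjusted p = 4.12e-20) and lower in the lobules (-2.11). Glra4 reached 1 TPM in 4 group means. Its calls in the hypothalamus (1.13) and cortex (-1.76) rested on levels of at most 1.69 TPM and 0.502 TPM, and neither passed the fold threshold by limma on log2(TPM + 0.5). The neuronal glycine transporter Slc6a5, which loads glycinergic terminals, was 7.92 to 156 TPM in the hindbrain nuclei, 24.8 to 58.7 TPM in CBN and at most 0.459 TPM in cortex. Slc6a5 was called higher in hindbrain nuclei (6.07), CBN (4.80) and lobules (3.51) and lower in ACB (-4.60), hypothalamus (-4.55) and cortex (-3.62), so that it and Glra1 had opposite calls in the hypothalamus and lobules.

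Of the AMPA receptor subunits, Gria2 and Gria3 were highest in forebrain and Gria4 in cerebellum. Gria2 encodes the subunit that, once its RNA is edited, makes the channel impermeable to calcium. It was 282, 303 and 332 TPM in ACB, 218 to 303 TPM in cortex and at most 172 TPM in any other adult library. Gria2 was called higher in cortex (log2 fold change 1.40, SE 0.06, adjusted p = 2.31e-28) and ACB (1.22, SE 0.09, adjusted p = 3.94e-17) and lower in CBN (-1.07, adjusted p = 2.34e-11). Gria3 was 75.7 to 135 TPM in cortex, above all other adult libraries (1.78, SE 0.06, adjusted p = 5.44e-31). Gria4, a subunit of rapidly gating receptors, was 108 to 252 TPM in the lobules (median 196 TPM), above every other adult library (85.8 TPM or less). Gria4 was called higher in the lobules (1.67, SE 0.04, adjusted p = 1.7e-37) and lower in ACB (-1.34, SE 0.10, adjusted p = 1.03e-16), where its 27.3, 33.9 and 35.1 TPM lay below every other adult library. Gria1 was 38.9, 39.7 and 65.5 TPM in CBN and was called lower there (-1.52, SE 0.12, adjusted p = 8.59e-15).

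The 5 kainate receptor genes had 4 calls in the adult comparisons. Grik2, whose subunit forms the channel of many central kainate receptors, was 70.9, 81.0 and 86.2 TPM in ACB, above every other adult library (69.0 TPM or less). It was called higher in ACB (log2 fold change 1.20, SE 0.13, adjusted p = 2.01e-11) and lower in CBN (-1.08, but -0.98 without CBN replicate 1). Grik5, which needs a partner to form a channel, was 138 to 186 TPM in cortex and was called higher there (1.296, adjusted p = 1.36e-23). Grik1 was called lower in ACB (-1.34, adjusted p = 3.83e-14). Grik3 and Grik4 had no call in any adult comparison.

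The NMDA receptor pairs the shared Grin1 subunit with Grin2 subunits that set open probability, deactivation and magnesium block. Grin2b, of slow receptors, was 72.9 to 109 TPM in cortex (median 87.2 TPM), 59.0 to 69.0 TPM in ACB, 13.99 to 44.5 TPM in the hypothalamus and 1.57 to 8.93 TPM in the lobules. The cortical libraries did not overlap with any other adult library. Grin2b was called higher in cortex (log2 fold change 3.06, SE 0.11, adjusted p = 2.82e-30) and ACB (2.19, SE 0.17, adjusted p = 4.5e-16) and lower in the lobules (-3.01, SE 0.13, adjusted p = 2.51e-26) and CBN (-1.99, SE 0.26, adjusted p = 8.38e-09). Grin2a, of faster receptors, was 28.4 to 64.5 TPM in cortex, also above all other adult libraries, and was called higher there (2.16, SE 0.07, adjusted p = 1.37e-32) and lower in the hypothalamus (-1.16, adjusted p = 5.13e-19).

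Grin2c, whose receptors are weakly blocked by magnesium and are typical of granule cells, was 70.9 to 161 TPM in the lobules (median 132 TPM). The next highest libraries were CBN with 27.2, 38.0 and 39.1 TPM. Grin2c was called higher in the lobules (log2 fold change 2.92, SE 0.07, adjusted p = 2.06e-37) and lower in the hypothalamus (-1.50, adjusted p = 8.45e-20). Grin2d, known from the brainstem and diencephalon, was 15.7 to 38.4 TPM in the hypothalamus. Grin2d was called higher there (1.12, adjusted p = 3.43e-21) and lower in ACB (-1.44, adjusted p = 1.11e-11) and lobules (-1.14, but -0.90 by limma on log2(TPM + 0.5)). Grin3a was called lower in the lobules (-1.33, adjusted p = 2.03e-25). Grin3b, of motor neurons, stayed under 10 TPM in all libraries. It was called higher in the hindbrain nuclei (2.02, adjusted p = 1.11e-14), CBN (1.87), VTA (1.21) and lobules (1.17, but 0.99 without FL replicate 4 and 0.77 by limma on log2(TPM + 0.5)) and lower in cortex (-2.06) and hypothalamus (-1.54).

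Of the delta receptors, which bind cerebellins at synapses, Grid1 was 8.51 to 16.7 TPM in the lobules and was called lower there (-1.47, SE 0.05, adjusted p = 1.23e-30).

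VTA needs a separate account, since several of its calls rested on replicate 1, the library with the high mitochondrial share. With all 3 libraries, Gabrq (log2 fold change 1.09), Gabrr1 (1.57), Grin2d (1.07) and Grin2c (-1.02) were called. Without VTA replicate 1 these were at 0.69 (adjusted p = 0.333), 1.296 (adjusted p = 0.126), 0.85 and -0.75, and none was called. Gabrd (-5.84), Glra1 (2.67), Glra3 (1.66), Gabrr2 (1.67) and Grin3b (1.45) kept their calls without it. By limma on log2(TPM + 0.5) with all 3 libraries, Gabrr2 (0.72), Grin3b (0.51, adjusted p = 0.0663), Grin2d (0.40), Gabrr1 (0.26) and Gabrq (0.25) were not called. Over all genes the median log2 fold change of that limma comparison was -0.391, against -0.005 by edgeR, so its values lie lower for the typical gene too. The TPM total includes mitochondrial transcripts, and their part in these results was not tested.

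The genes of proteins that bind, traffic or ionically support these receptors were set beside them. Of 36 such genes, 15 were called higher and 3 lower in cortex, 12 and 3 in ACB, 0 and 1 in the hypothalamus (edgeR, with 12 higher at an unadjusted p under 0.05 and 0 called by DESeq2), 1 and 2 in VTA, 2 and 3 in the hindbrain nuclei, 4 and 8 in the lobules and 3 and 5 in CBN, beside the shares of all genes given above. In cortex, the AMPA receptor partners Cnih3 (log2 fold change 3.94) and Cacng3 (3.13) and the scaffold Homer1 (2.56) were the largest rises. Cnih3 was 77.8 to 99.5 TPM in cortex and at most 26.1 TPM in any other adult library. In ACB, the kainate receptor partner Neto1 (3.03), the GABA-A receptor partner Shisa7 (2.49) and Homer1 (2.06) were highest. In the lobules Shisa6 (2.91) rose, and Neto1 (-3.49) and Cacng3 (-2.45) fell. In CBN, Cnih3 (-2.70), Cacng3 (-2.02) and Shisa7 (-1.95) fell. The scaffolds Shank2 and Shank3 fell in both the hindbrain nuclei (-1.53 and -1.20) and VTA (-1.03 and -1.30), Homer1 fell in the hindbrain nuclei (-1.22), and Gsg1l rose in VTA (1.19).

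Receptor genes also differed inside systems. Among the 5 hypothalamic areas, 23 members differed at an adjusted p under 0.05, where 28.8% of all genes did. Of these 23, Gabrd had the largest ratio of means, with 38.5 and 29.0 TPM in PVH, 12.5 to 25.8 TPM in DMH, 3.76 to 18.8 TPM in LHA, 1.39 and 1.51 TPM in VMH and 0.630 to 1.59 TPM in ARH (adjusted p = 4.76e-16). Gabra4 had the same order at its top, with 88.3 and 105 TPM in PVH and 12.8, 17.7 and 18.8 TPM in ARH (adjusted p = 2e-12). Both moved with genes typical of the thalamus, which borders PVH, DMH and LHA. Prkcd, Tnnt1, Ramp3 and Plekhg1, chosen after their values were seen, summed to 563 and 432.5 TPM in PVH, 177 to 454 TPM in DMH, 71.9 to 240.0 TPM in LHA and 24.9 to 34.0 TPM in VMH and ARH. Their part in the Gabrd and Gabra4 results was not tested.

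Other members were highest in ARH and lowest in LHA, namely Gabre (64.9 TPM in ARH, 8.28 TPM in LHA, adjusted p = 1.08e-07), Gabra5 (70.1 and 23.3 TPM, adjusted p = 0.00143) and Grik5 (116 and 68.6 TPM, adjusted p = 0.0125, lost without LHA replicate 1). Grik3 was 43.8 TPM in ARH and 17.6 TPM in PVH (adjusted p = 2.9e-08). Conversely, Gabrb2 and Glrb were lowest in ARH, Gabrb2 with 28.6 TPM against 68.1 TPM in PVH (adjusted p = 3.74e-06) and Glrb with 105 TPM against 165 TPM in LHA (adjusted p = 8.35e-06). Marker sums of other cells also set ARH apart. Neuron markers summed to 1770 to 1928 TPM in ARH and 2120 to 3172 TPM in the other hypothalamic areas, and the 6 pituitary markers to 76.1 to 117 TPM and 1.89 to 18.7 TPM. Oligodendrocyte markers summed to 810.3 to 1407 TPM in ARH, 1277 to 5223 TPM in PVH, VMH and DMH and 9497 to 12430 TPM in LHA. Their part in the ARH differences was not tested. The Gabrq difference (81.2 TPM in ARH, 19.2 TPM in LHA) had an adjusted p of 0.036 and was lost when any of 9 libraries was left out (ARH replicates 1, 2 and 3, LHA replicates 1, 2 and 3, PVH replicates 1 and 2, or VMH replicate 2).

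Among the cerebellar lobules, 20 members differed (30.6% of all genes did), and FL stood apart. Glra1 was 38.4, 43.5, 37.9 and 82.0 TPM in FL and 0.234 to 15.3 TPM in the other lobules (adjusted p = 7.88e-15). Glra4 was 7.27, 11.9 and 10.04 TPM in FL replicates 2, 3 and 4 but 0.745 TPM in FL replicate 1, against at most 1.52 TPM in other lobules (adjusted p = 1.47e-11). Gabra5 was 7.24 to 24 TPM in FL and 0.325 to 6.87 TPM in the others, so these groups did not overlap (adjusted p = 3.11e-13). Gabrb2, Gria1 and Gria4 were lowest in FL and highest in CUL4-5. Gria1, for example, was 75.3 to 132 TPM in FL and 229 to 246 TPM in CUL4-5 (adjusted p = 4.82e-09). Oligodendrocyte markers summed to 7818 to 10750 TPM in FL and at most 3298 TPM in the other lobules, granule cell markers to 844 to 1489 TPM and 1233 to 2112 TPM, and Slc6a5 to 18.9 to 39.0 TPM and 5.33 to 13.1 TPM. Their part in the FL differences was not tested. Gabrd (115.5 TPM in FL, 217.5 TPM in CUL4-5, adjusted p = 0.0193) was no longer past the threshold without FL replicate 2 (0.0684) or FL replicate 4 (0.142).

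Among the hindbrain nuclei, 14 members differed (7.35% of all genes did), several of them between PB and the caudal nuclei. Gabrb2 was 58.5 TPM in PB and 24.8 TPM in DVC (adjusted p = 0.000102), and Grin3b was 1.42 TPM in PB and 6.45 TPM in DVC (adjusted p = 0.000466). The lower Glra1 of PB (73.2 TPM against 188 TPM in NTS) had an adjusted p of 0.0391 and was lost without NTS replicate 3 or 4 or without PB replicate 1, 2 or 3. Among the cortical areas, 13 members differed (12.7% of all genes did). Gabrd was 17.8 TPM in ENT and 49.7 TPM in FRP (adjusted p = 0.000155), while Glra2 (14.97 TPM in ENT, 5.66 TPM in ACA, adjusted p = 5.18e-05), Grik1 (12.9 and 5.91 TPM, adjusted p = 4.79e-09) and Grin2d (10.95 and 5.51 TPM, adjusted p = 0.000118) were highest in ENT.

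TPM is per transcript length, so subunits of 1 family can be set side by side within a library. Shares of the summed TPM were compared between systems by two-sided exact permutation tests over libraries, with p-values adjusted over 30 tests, of which 27 passed 0.05. Libraries were regrouped without regard to region, although libraries of a region are alike and pools shared animals. These p-values therefore treat pools as separate replicates of a system and overstate the evidence for a difference between systems. Grin2b made 54.9% ± 3.52 (SD, n = 9) of the Grin2 transcripts in cortex, 35.5% ± 5.35 (n = 14) in the hypothalamus and 3.08% ± 1.24 (n = 15) in the lobules, and both differences from cortex had an exact adjusted p of 4.59e-06. The raw p of these tests is the smallest their regroupings allow. Grin2c made 73.6% to 86.9% of Grin2 transcripts in the lobules (median 80.9%). Gria2 made 44.9% ± 1.04 (n = 9) of the AMPA receptor transcripts in cortex, 33.1% ± 2.39 (n = 14) in the hypothalamus, 25.6% ± 2.94 (n = 10) in the hindbrain nuclei and 23.1% ± 2.76 (n = 15) in the lobules. The exact adjusted p was 4.59e-06 for cortex against the hypothalamus and against the lobules, and 2.5e-05 for hindbrain nuclei against hypothalamus.

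Glra2 made 62.8% ± 6.37 (n = 9) of glycine receptor alpha transcripts in cortex, 38.6% ± 9.71 (n = 14) in the hypothalamus and 8.63% ± 6.96 (n = 10) in the hindbrain nuclei. The exact adjusted p was 3.67e-05 for the first pair and 4.59e-06 for the second. Lobules and cortex did not pass in this share (43.1% ± 27.4, n = 15, exact adjusted p = 0.0505), but passed when any of CENT2 replicate 3, CUL4-5 replicate 2, 3 or 4 or UVU replicate 2 or 3 was left out (exact adjusted p = 0.0263 to 0.0439). The lobule libraries ran from 3.5% to 78.22%, so their mean describes the lobules poorly. Glra1, part of the same sum, was higher in FL than in the other lobules, as given above.

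**Figure D3:**
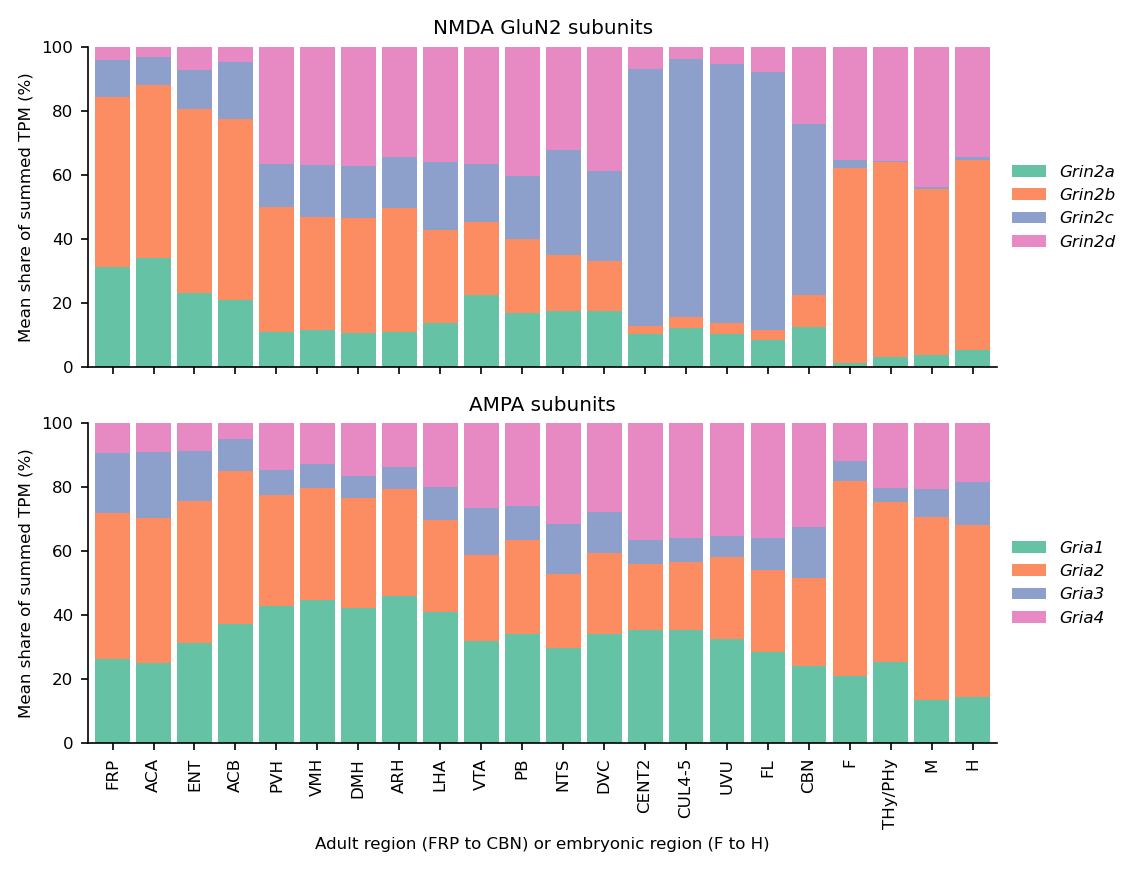
Mean share of summed TPM (percent, stacked bars from 0 to 100) held by each subunit among Grin2a to Grin2d and Gria1 to Gria4 in the 22 brain groups. Grin2c fills most of the Grin2 bar in the 4 lobules and Grin2b in cortex, THy/PHy and H. Over single embryonic libraries, Grin2b held 47.5% to 67.3% and Grin2d 28.5% to 48.6%. The Gria2 segment is larger in cortex than in the lobules.

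Transcript-level estimates gave the share of TPM, among the transcripts that could be assigned, held by those that carry each alternative exon shown above. These values are descriptions with no test, were chosen after their values were seen, and rest on the assignment of short single reads to transcripts. These assigned transcripts held 45.2% to 98.3% of Grin1 TPM in adult libraries (median 90.3%), 30.1% to 93.1% in embryonic libraries and at least 95.02% of Gria1 TPM. The N1 cassette of Grin1 was rare in ACB, at 1.54% to 7.16%, and 8.42% to 34.5% in cortex. It was 55.4% to 74.3% in VTA, 56.2% to 83.6% in the hindbrain nuclei, 61.1% to 76.5% in the lobules and 58.0% to 67.0% in CBN. The hypothalamus was divided, with 1.31% to 2.85% in ARH, 7.96% and 20.5% in VMH, 27.8% to 42.1% in DMH, 34.8% and 40.6% in PVH and 35.6% to 51.7% in LHA. No library of cortex, ACB or hypothalamus exceeded 51.7%, and none of VTA, hindbrain nuclei, lobules or CBN was under 55.4%, although Grin1 as a gene had no adult call.

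The C1 cassette ran the other way, from 74.6% to 87.4% in cortex and 82.8% to 86.4% in ACB to 23.8% to 59.7% in the hypothalamus and 7.98% to 16.6% in the hindbrain nuclei. The lobules held 22.1% to 42.6%. The flip exon of Gria1 was in 81.3% to 92.8% of transcripts in the lobules and 69.6% to 79.7% in CBN. It was in 30.6% to 46.4% in cortex, 37.3% to 56.7% in the hypothalamus and 45.4% to 62.1% in the hindbrain nuclei, so cerebellar libraries lay above these. VTA was uneven, with flip shares of 21.7%, 52.6% and 39.5%, the lowest in replicate 1.

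**Figure D4:**
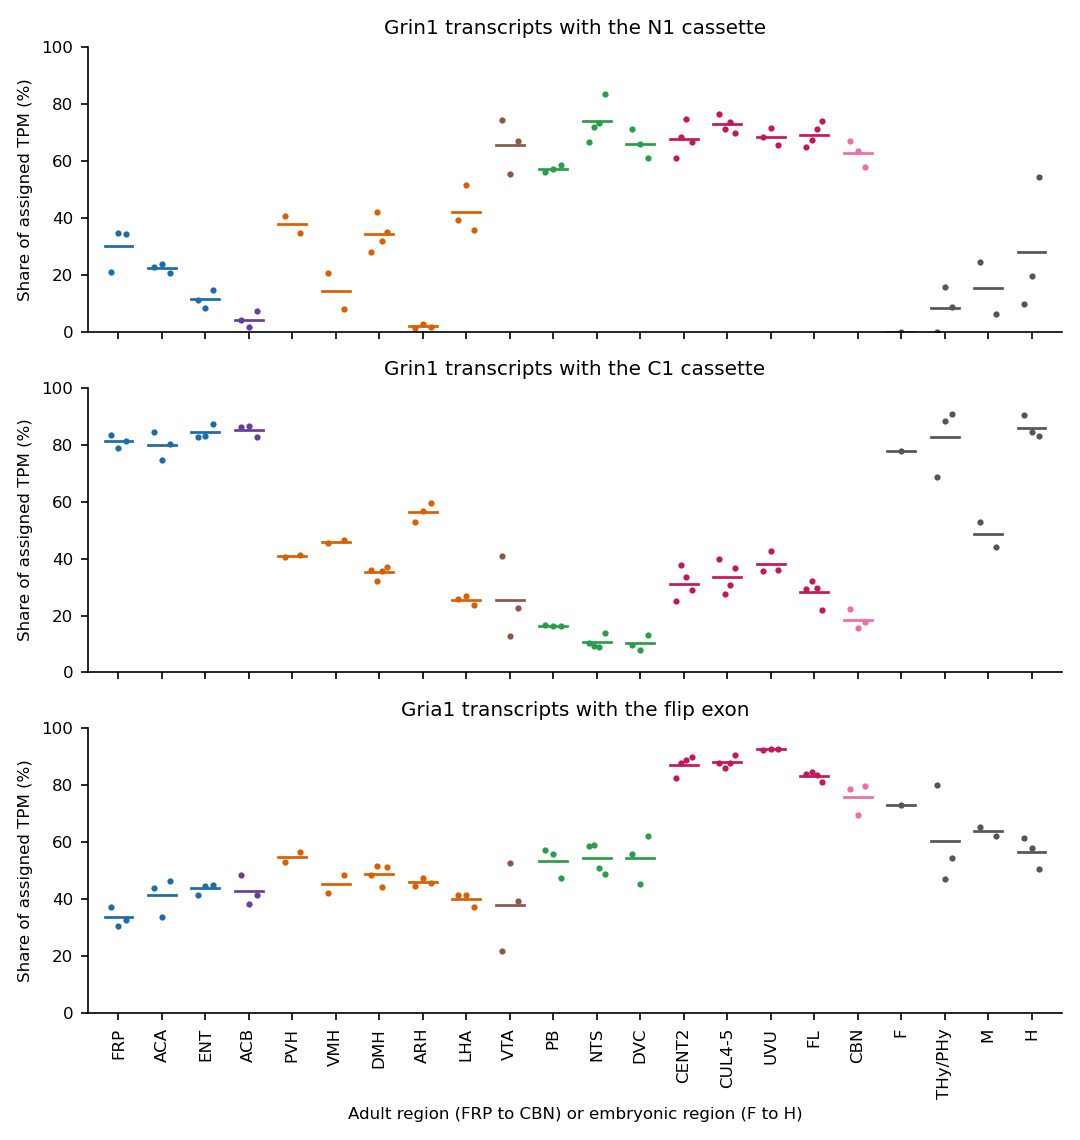
Share of the TPM of assigned transcripts (percent) held by those with the Grin1 N1 cassette, the Grin1 C1 cassette and the Gria1 flip exon, per library (points), in the 22 brain groups. N1 is at most 7.16% in ACB and ARH and over 55% from VTA to CBN, C1 is over 74% in cortex and ACB, and flip is over 81% in the lobules.

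To ask which subunits change with age, E14.5 THy/PHy was compared with the 5 adult hypothalamic areas, and E14.5 H with PB, NTS and DVC. In the hypothalamus, 27 members were called lower in the embryo and 0 higher, where 20% and 18.2% of all genes were. Of the 41 members tested by edgeR, 3 were higher at an unadjusted p under 0.05, and DESeq2 called 1 of the 41 higher. In the hindbrain, 29 were lower and 2 higher (21.1% and 23%). The member medians were -1.97 and -1.63, and those of all genes were 0.00 and 0.02. Neuron markers summed to 2260 to 2796 TPM in THy/PHy, inside the 1770 to 3172 TPM of the adult hypothalamus. In H they summed to 1017 to 2687 TPM, below the 3418 to 4108 TPM of the adult hindbrain nuclei. H replicate 1 had the lowest depth (9074581 counts), and its members summed to 376.6 TPM, against 730.6 and 681.2 TPM in H replicates 2 and 3. Progenitor markers summed to 563.9 to 2215 TPM in embryonic libraries and at most 518 TPM in adult ones. Their part in the differences was not tested.

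Grin2c, Glra1, Glra3, Gabrd and Glrb were among the most reduced in both embryonic regions. Glrb was 6.81 to 14.47 TPM over all embryonic libraries and 97.9 to 254 TPM in the adult hypothalamus and hindbrain (-4.13 and -4.12, adjusted p = 7.14e-30 and 8.77e-30). Grin2c was at most 0.271 TPM in the embryo (-6.60 and -6.17), Glra3 at most 0.412 TPM (-6.39 and -4.44) and Gabrd at most 0.186 TPM (-5.95 and -5.35), and fitted sizes at such levels depend on the prior count. Glra1 was 0.598 to 1.27 TPM in THy/PHy (-4.63) and 2.15 to 3.44 TPM in H (-5.41). Grin1 was 6.68 to 61.3 TPM in embryonic libraries (-3.42 and -3.07). Gabrg1 was 1.15 to 2.05 TPM in THy/PHy and H (-4.66 and -3.60). In the hypothalamus, Gabra4 (-3.89), Gabrb1 (-3.75) and Gabre (-3.66) also fell by large amounts, and in H so did Glra4 (-2.84), which is at most 0.122 TPM there.

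Several subunits changed less with stage. None of the 5 kainate receptor genes was called in the hypothalamus (median log2 fold change 0.01), and in H only Grik4 (-1.37) and Grik2 (1.14) were. Grik2 was 22.2 to 41.2 TPM in embryonic libraries and 11.1 to 25.4 TPM in the adult hindbrain nuclei, and its call was lost without H replicate 2 (0.93) and by limma on log2(TPM + 0.5) (0.72). Gria2 (-0.88 and 0.14), Grin2b (-0.83 and 0.65) and Glra2 (-0.66 and 0.79) were within the fold threshold in the hypothalamus and hindbrain. The other gene called higher in H, Gabrp, was at 0.0898, 0.359 and 0.351 TPM there and at most 0.0316 TPM in the adult hindbrain. Its fitted fold rests on a few reads, and DESeq2 did not call it (adjusted p = 0.631). Calls in H lost without a library were Gabra4 (without H replicate 3, DVC replicate 1, NTS replicate 4 or PB replicate 2), Gabra6 (H replicate 1, 2 or 3, DVC replicate 2 or PB replicate 1), Gria3 (H replicate 2 or 3) and Grin2d (H replicate 1).

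The shares within families shifted accordingly. From embryo to adult in the hypothalamus, Glra2 went from 91.5% ± 4.28 (SD, n = 3) to 38.6% ± 9.71 (n = 14) of the glycine receptor alpha transcripts. Grin2b went from 60.8% ± 9.65 to 35.5% ± 5.35, Grin2a from 3.16% ± 1.14 to 11.5% ± 1.57, Gria2 from 49.9% ± 2.82 to 33.1% ± 2.39, and Slc12a5 from 79.4% ± 1.38 to 91.4% ± 3.58 of its sum with the chloride importer Slc12a2. None of these 5 shares overlapped between stages, and each had an exact two-sided p of 0.00147, the smallest 680 regroupings allow (adjusted p = 0.00221). In the hindbrain the same 5 shares moved in the same directions, Glra2 from 84.4% ± 3.72 (n = 3) to 8.63% ± 6.96 (n = 10) and Grin2b from 59.4% ± 5.84 to 18.6% ± 4.75, each with an exact p of 0.0035, the smallest possible (adjusted p = 0.00389). Of the 36 partner genes, 3 were higher and 15 lower in THy/PHy and 6 and 16 in H, where Slc12a5 (-2.82 and -3.69), the glial glycine transporter Slc6a9 (-2.95 and -3.78) and the RNA-editing enzyme Adarb1 (-3.78 and -3.67) were among the most reduced, with Cacng5 (-3.33) in THy/PHy. Slc6a5 was higher in THy/PHy (1.65) and lower in H (-2.96).

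The stage differences of the hypothalamus and hindbrain were then compared by an interaction term. In 10 members the embryonic level was lower, relative to the adult, in the hypothalamus than in the hindbrain, and in 1 it was higher, where 6.38% and 3.46% of all genes were called. Gabra4 had the largest term (-2.88, SE 0.30, adjusted p = 2.83e-10), being 1.803 to 2.07 TPM in THy/PHy and 12.8 to 105 TPM in the adult hypothalamus, but 2.85 to 3.58 TPM in H and 7.83 to 11.1 TPM in the adult hindbrain nuclei. Grin3b was the exception in direction (2.34, SE 0.51, adjusted p = 0.000415). The other terms included Gabre (-1.95), Grin2b (-1.49), Glra2 (-1.46), Gria3 (-1.29), Grik2 (-1.13), Gabrg1 (-1.06), Gabrb1 (-1.06) and Gria2 (-1.02). Gabrb1 and Grik2 were lost without H replicate 2 or THy/PHy replicate 1, and Gria2 without either of these, H replicate 3, DVC replicate 2 or VMH replicate 1. By limma on log2(TPM + 0.5), Grin2b (-0.998, adjusted p = 0.0669), Gria2 (-0.86), Gabrb1 (-0.85) and Grik2 (-0.78) were not called. Among the partners, 1 term was higher and 5 lower, with Slc6a5 (4.60), Gsg1l (-1.65), Cacng4 (-1.27) and Shisa9 (-1.22) the largest.

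**Figure D5:**
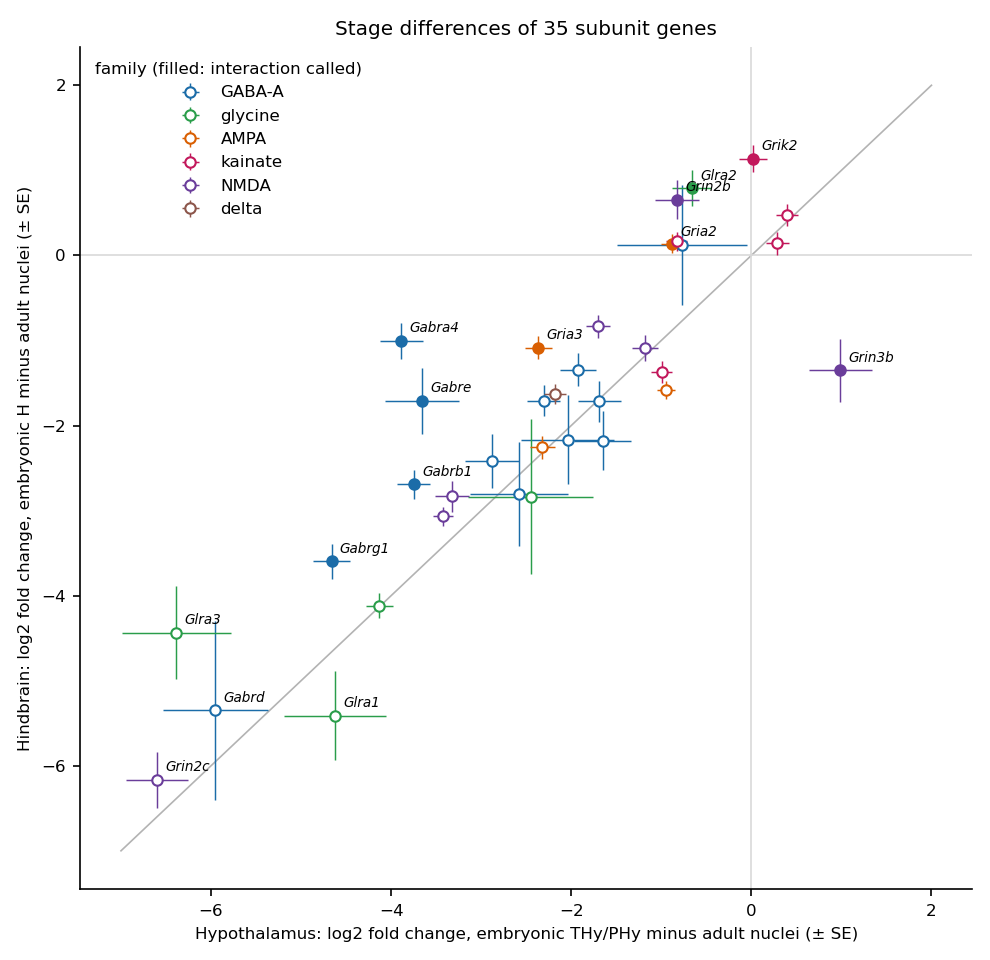
Log2 fold change (embryonic minus adult, error bars ± SE) in the hypothalamus (x axis) and hindbrain (y axis) for 35 members with an SE under 1.5 in both, filled where the interaction was called, with the line of equality in grey. Most members lie below 0 on both axes, and Gabra4 lies far to the left of the line (-3.89 on the x axis).

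Embryonic stem cells held little of these receptors. Compared with the embryonic brain, 32 members were called lower and 3 higher in mESC (29% and 26.8% of all genes). Of the tested members, those most reduced were Glra2 (log2 fold change -10.26, SE 0.55, adjusted p = 5.48e-23), Grik1 (-9.40), Gria1 and Gria2 (both -7.91), Grik2 (-7.64), Gabrq (-7.14), Gria4 (-7.10), Gabra3 (-6.92) and Grin2b (-6.91). Glra2 was at 0 in 3 of 4 mESC libraries, so its fitted size depends on the prior count. Gria2 was 36.7 to 91.0 TPM in the embryonic brain and 0.0817 to 0.410 TPM in mESC. The 8 members with a mean of at least 1 TPM in a line included Grik3 at 6.58 to 7.57 TPM, Glrb at 4.34 to 6.90 TPM and Grik5 at 4.00 to 6.52 TPM. Gabrp, the pi subunit known from epithelia and reproductive tissue, was 0.909 to 2.21 TPM in mESC and at most 0.359 TPM in any brain library (5.22, SE 0.91, adjusted p = 1.94e-05), though DESeq2 did not call it (adjusted p = 0.535). Gabrp averaged 1.9 counts per library, and only the 2 mESC lines had a mean of 1 TPM or more. It may thus have passed the low-count filter through mESC alone, and its call adds nothing beyond these levels. Glra4 (2.33) and Gabrr1 (1.77) were also called higher, at levels of at most 0.568 and 0.820 TPM, but not by limma on log2(TPM + 0.5) (0.57 and 0.37). Gabrr1 was lost without B6-1 replicate 1 or B6-2 replicate 2, and Glra3, called lower, without B6-1 replicate 1 or either B6-2 library. Of the partner genes, 30 were lower and 1 higher, among them Cacng2 (-9.21), Shisa9 (-8.52) and Dlg2 (-8.24), and Neto1 was at 0 in all mESC libraries.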

How the data were processed

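RNA-Seq of 70 mouse libraries in 24 groups was used. Per the labels and the study's methods, the authors assigned single reads to GRCm38 transcripts with Kallisto and deposited estimated counts and TPM per transcript, and the deposited gene TPM is the sum over transcripts. Whether assignment used strand is not stated. Here, estimated counts were summed per gene (107987 of 109282 transcripts matched), rounded and tested in 1 model of 24 groups by edgeR 4.0.16 (R 4.3.3), with TMM scaling, its filter on low counts and Benjamini-Hochberg adjustment over 19980 genes. Depth was 9074581 to 22229582 counts. Shares were taken of TPM and compared by exact permutation (SciPy 1.17.1). The fit was tested on simulated data. Alternatives were DESeq2 1.42.0, limma 3.58.1 on log2(TPM + 0.1) or log2(TPM + 0.5), RLE scaling, no filter, the compared groups alone, a replicate block and leaving out each library (2120 genes, adjusted over these). Genes were named by rule: all members are accounted for, with library values meant for at most the 10 called members and 4 called partner proteins of largest fold change per comparison. Further members are described by family, so some comparisons name more than 10. Some members are not reported here by name and stay in the counts. The members and lists were chosen with earlier results of these data known.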

Additional observations from a re-analysis of the deposited data

Results flagged for a closer look

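Single libraries stood far from the other libraries of their group in 14 of 175 tests of a member in a group of 4 (gap to the nearest library over the whole range, against Dixon's critical value at 95%), where chance alone gives about 8.8. In FL, replicate 4 was apart for Gabra2 (31.65 TPM), Glra1 (81.96 TPM) and Grin3b (5.747 TPM). FL replicate 4 also held the most Slc6a5 of the FL libraries (38.95 TPM) and the least Gabra6 (227.3 TPM). In DMH, replicate 2 was apart for Gabrg1 (32.69 TPM), Glra3 (8.286 TPM) and Grin2a (9.543 TPM), and it also held the most thalamus-gene TPM of the DMH libraries (453.7). CENT2 replicate 1 was apart for Gabrq (6.975 TPM) and Glra1 (15.26 TPM). In NTS, Gabra3 in replicate 4 (63.9 TPM), Gabre in replicate 3 (2.404 TPM) and Grik4 in replicate 2 (15.63 TPM) stood apart.

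The difference between embryo and adult itself differed between hypothalamus and hindbrain for 11 members by edgeR's interaction test. The terms included -2.883 for Gabra4, -1.948 for Gabre, -1.485 for Grin2b, -1.456 for Glra2, -1.285 for Gria3, -1.125 for Grik2, -1.064 for Gabrg1, -1.058 for Gabrb1, -1.018 for Gria2 and 2.338 for Grin3b, on the log2 scale.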

How the results depend on the processing

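Fitting only the groups compared moved the number of members that differed among the hypothalamic nuclei from 23 to 35 and among the hindbrain nuclei from 14 to 22. Over all genes the same refit moved it from 5748 of 19980 tested to 8637 of 16526, and from 1468 of 19980 to 2808 of 15720. The cause was not tested. No fitted single result changed sign under any alternative. With 1 library left out, the number of members called ranged over 18 to 20 in cortex, 11 to 13 in ACB, 16 to 16 in the hypothalamus, 7 to 10 in VTA, 7 to 7 in the hindbrain nuclei, 20 to 21 in the lobules, 11 to 14 in CBN, 27 to 29 and 28 to 31 in the embryonic hypothalamus and hindbrain, 8 to 12 for the interaction, and 33 to 35 in mESC. Among areas it ranged over 19 to 25 in the hypothalamus, 18 to 22 in the lobules, 10 to 14 in cortex and 10 to 14 in the hindbrain, and 27 to 28 shares passed. Of single calls, 8 were lost with DESeq2, 6 with the compared groups alone, 2 with RLE scaling and 5 without the filter. Limma at pseudocounts 0.1 and 0.5 lost 37 and 42, and the replicate block lost 3. Same-numbered libraries had a median r of 0.008 over 669 pairs (7.6% above 0.1), and differently numbered ones -0.004 over 1603 pairs (4.8%). Of 69 libraries, 26 were closest to their own number. The numbers are not stated to record shared animals. Neither this check nor the replicate block can therefore show that pools are unpaired. The block gave 19, 12, 16, 10, 7, 21 and 12 members in the adult comparisons in the order above, 27, 30, 12 and 35 in the others, and 22, 20, 13 and 13 among hypothalamic, lobule, cortical and hindbrain areas. Depth limits Gabrr1, Gabrr3 and Gabrp, which were near 0 in the brain.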

Other observations

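Neighbouring receptor genes were compared over the 18 adult region means, as descriptions with no test, since the points share libraries. Gabre and Gabrq on chromosome X had r = 0.98, Gabra2 and Gabrb1 on chromosome 5 had r = 0.9, and Gabrg3 and Gabra5 on chromosome 7 had r = 0.8. Other neighbours ran apart, with r = -0.72 for Glra1 and Gria1 and -0.72 for Gria2 and Glrb. Over all 780 pairs of 40 members, r ran from -0.92 to 0.98 (median 0.08). Outside the clusters, the adult patterns of Grin2a and Gria3 (r = 0.94) and of Gabra6 and Grin2c (r = 0.96) were alike.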
